A study of Homo sapiens with 9 samples.

Results

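The 19p12 zinc finger cluster is a run of related genes on the short arm of human chromosome 19. Here it was taken as 35 listed genes, lying between ZNF101 and ZNF254 on the chromosome. The list was chosen by the behaviour of 1 member, ZNF626, whose signal was high on some arrays and low on others. For each gene, the probe with a single gene symbol and the highest mean over all arrays was used, and 32 of the 35 members had such a probe, among 18417 genes in all. ZNF66 had no probe, and ZNF98 and ZNF728 were matched only by probes that carry several gene symbols.

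Genes of this kind encode proteins with arrays of zinc fingers, most of which also carry a Krüppel-associated box (KRAB). In human cells the fingers read DNA, often sequence derived from retrotransposons, and the KRAB box recruits the corepressor TRIM28 with histone methyltransferases and heterochromatin proteins. Such genes lie in clusters that arose by repeated duplication, so that neighbours are close in sequence.

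RNA was labelled as coming from the cell line MDA-MB-231, of human breast cancer without hormone receptors or HER2 amplification. There were 3 arrays of cells given the peptide SID, which copies the Sin3-binding stretch of the MAD1 protein as a decoy and is carried into cells by a TAT sequence, at 2.5 μM for 24 h. Another 3 arrays were of cells given a scrambled peptide (SCR) at that dose and time, and 3 of untreated (UT) cells. All values are log2 signals of Affymetrix Human Gene 1.0 ST arrays, which have no read depth, so that precision is limited by their number. Array medians lay between 7.68 and 7.77. In such bulk samples, fewer cells with a transcript and less RNA per cell cannot be told apart.

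The 9 arrays fell into 2 sets that crossed the treatment labels. Replicates 1 and 2 of SID and SCR, called set A below (4 arrays), correlated with each other at Pearson r of 0.963 to 0.995 over all genes. Replicate 3 of SID, replicate 3 of SCR and the 3 UT arrays, called set B (5 arrays), correlated at 0.992 to 0.997. Between the sets r was 0.908 to 0.929. Known markers of the labelled line moved with the sets. Of 8 genes high in MDA-MB-231 cells, 4 were higher on set A by over 1 log2 unit, and the log2 of the list's summed signal was 16.12 to 16.21 on set A and 14.81 to 14.97 on set B. Of 8 genes low in this line, 4 were higher and 1 lower on set A, with a summed level of 12.5 to 13.4 on set A and 11.2 to 11.3 on set B. The epithelial genes EPCAM and KRT19 averaged 10.40 and 11.67 on set A and 6.48 and 7.49 on set B. GATA3 and CDH1 also had higher means on set A (differences of 1.89 and 2.04). Other epithelial genes went the other way, with set A minus set B at -1.11 for FOXA1, -0.68 for KRT8 and -0.71 for KRT18. ESR1 differed by -0.11. AXL and PLAU, known to be high in this line, averaged 13.19 and 12.61 on set A and 10.03 and 9.24 on set B. CDKN2A, a locus known to be deleted in MDA-MB-231 cells, read 7.58 to 10.03 on set A and 10.96 to 11.21 on set B. All 9 of these values lay above the lowest 25% of each array's values (below 6.70 to 6.87), and they were higher on set B. The set B values had a mean percentile of 87.8, which goes against the label. On set A, SCR replicates 1 and 2 read 9.91 and 10.03, which also goes against the label. With no detection call used, whether the lower values of SID replicates 1 and 2 (7.85 and 7.58) are signal of this gene was not tested. Whether the sets come from 1 cell stock or 1 run was not tested, and each gap between set A and set B holds any such difference. In the luminal list 2 of 6 genes were higher and 1 lower on set A, with a summed level of 14.0 to 14.8 on set A and 14.6 to 14.9 on set B. Neither of the 2 basal genes measured differed by over 1 in set means (summed level 9.38 to 10.7 on set A and 9.59 to 9.77 on set B). Set A was not uniform in its markers. There KRT5 read 6.99 and 7.29 with SID and 9.28 and 10.18 with SCR, against 7.68 to 8.16 on set B. CDH1 read 7.05 and 7.26 with SID and 10.13 and 11.08 with SCR, against 6.73 to 6.91 on set B. The other basal gene, KRT14, read 8.85 to 9.18 on set A and 9.15 to 9.20 on set B. Since the sets were recognised in the data, all comparisons between them are descriptions without a test.

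Promoters of members are shown first, since they carry a shared feature that the choice of genes did not use. RefSeq promoter sequences (build GRCh38.p14, 250 bases before to 50 after the annotated start) were found for 28 of the 35 members. The 10-base word held by most of them was TCCAATCAGG, which contains the CCAAT box known to be bound by the factor NF-Y. The word was present in 26 of the 28, on the gene's own strand each time, and absent from the windows of ZNF493 and ZNF257. Searched on both strands with no mismatch, it was found in 122 of 35116 promoters of the same length (0.347%), and in 33 of 527 promoters of ZNF genes outside the cluster (6.26%). The word was picked after the member promoters had been counted, so these shares are a description, and a match is not evidence of binding. The 250 bases before the ZNF626 start, at chr19:20661572-20661821 on the minus strand, are given 5′ to 3′ with the word in capitals.
ZNF626: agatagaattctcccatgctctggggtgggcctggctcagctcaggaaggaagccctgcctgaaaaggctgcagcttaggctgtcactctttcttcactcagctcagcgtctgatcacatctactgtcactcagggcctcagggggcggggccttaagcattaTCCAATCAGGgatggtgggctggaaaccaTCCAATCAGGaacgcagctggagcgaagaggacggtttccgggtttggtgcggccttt

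The same 60 bases, from 95 to 36 before the start, are set side by side for ZNF626, for 4 members with large gaps between the array sets (ZNF737, ZNF724, ZNF486 and ZNF90) and for 3 with small gaps (ZNF714, ZNF254 and ZNF101). They lie at chr19:20661607-20661666 (minus strand), chr19:20565817-20565876 (minus), chr19:23250430-23250489 (minus), chr19:20167119-20167178 (plus), chr19:20077905-20077964 (plus), chr19:21082108-21082167 (plus), chr19:24087092-24087151 (plus) and chr19:19668744-19668803 (plus).
ZNF626: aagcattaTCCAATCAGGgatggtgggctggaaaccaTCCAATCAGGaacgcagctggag
ZNF737: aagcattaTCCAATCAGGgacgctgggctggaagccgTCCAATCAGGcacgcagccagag
ZNF724: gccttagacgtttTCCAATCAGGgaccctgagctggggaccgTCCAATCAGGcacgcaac
ZNF486: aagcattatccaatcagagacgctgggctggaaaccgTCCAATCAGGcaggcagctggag
ZNF90: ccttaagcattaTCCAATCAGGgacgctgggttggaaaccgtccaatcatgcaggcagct
ZNF714: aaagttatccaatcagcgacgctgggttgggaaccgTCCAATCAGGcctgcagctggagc
ZNF254: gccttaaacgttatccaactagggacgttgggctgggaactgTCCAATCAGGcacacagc
ZNF101: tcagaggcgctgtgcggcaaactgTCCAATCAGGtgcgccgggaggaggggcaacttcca
Members with large and with small gaps both hold the word. ZNF626, ZNF737, ZNF724, ZNF93, ZNF43, ZNF208 and ZNF675 hold 2 copies.

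ZNF626, a KRAB zinc finger gene, was the gene on which the list was chosen, and its values are given as a description only. Its log2 signal was 12.05, 11.76 and 4.71 on the SID arrays, 11.99, 11.41 and 5.56 on the SCR arrays, and 4.99, 4.94 and 5.40 on the UT arrays. The 4 arrays of set A were thus high and the 5 of set B low, with no value in between. The means were 11.80 ± 0.29 on set A (SD, n = 4) and 5.12 ± 0.35 on set B (SD, n = 5), a difference of 6.68 or 103-fold, ranked 1 among the 18417 genes. The second ZNF626 probe showed the same split with a smaller gap of 2.80, reading 9.05, 8.50 and 5.74 on the SID arrays, 8.42, 8.12 and 5.57 on the SCR arrays, and 5.79, 5.78 and 5.74 on the UT arrays.

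**Figure D1:**
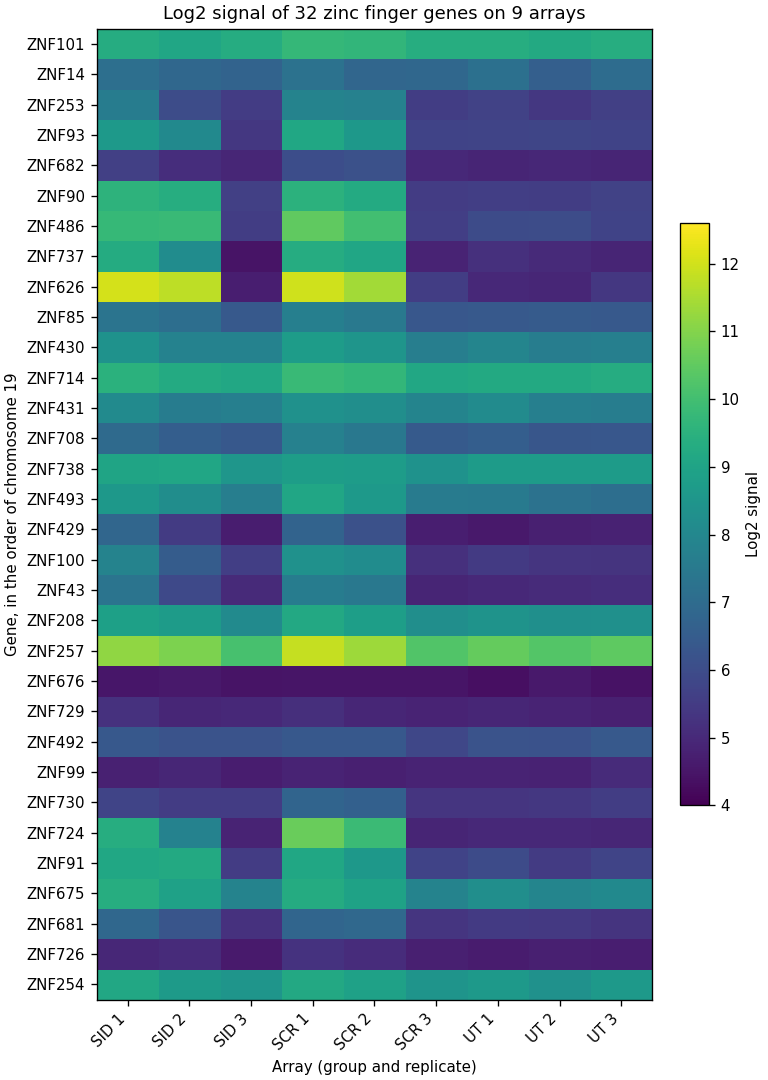
Log2 signal (colour) of the 32 measured members, in rows by their order on chromosome 19, on the 9 arrays in columns (SID, SCR and UT, replicates 1 to 3). Replicates 1 and 2 of SID and SCR are bright for ZNF626 (11.41 to 12.05) and dark on the other 5 arrays (4.71 to 5.56), and other members such as ZNF676 are dark throughout.

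Many neighbours of ZNF626 were split in the same way. Of the other 31 measured members, 14 (45.2%) had all 4 arrays of set A above all 5 of set B with means over 1 apart, against a background of 5.96% of all genes (1097 of 18417). No member was lower on set A without overlap at any size, where 15.6% of all genes were. Counting gaps of any size, 20 of the 31 were higher on set A with no overlap (64.5%, against 16.8% of all genes), and the other 11 overlapped. The median gap was 0.80 over the 31 members and -0.01 over all genes, whose gaps ran both ways (4.57% were lower on set A without overlap and by over 1).

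A gap above 3 was seen for 5 of the 31 (16.1%, against 0.858% of all genes). ZNF724 read 9.35, 7.81 and 4.85 on the SID arrays, 10.63, 9.86 and 4.90 on the SCR arrays, and 4.98, 4.99 and 4.91 on the UT arrays. Its 5 arrays of set B lay close together (4.85 to 4.99), while set A spread from 7.81 to 10.63. ZNF486 read 9.78, 9.81 and 5.55 on the SID arrays, 10.51, 9.99 and 5.60 on the SCR arrays, and 5.97, 5.99 and 5.73 on the UT arrays. Its set A values lay closer together than those of ZNF724. ZNF737, which sits beside ZNF626 among the measured members, read 9.28, 8.18 and 4.47 on the SID arrays, 9.32, 9.10 and 4.86 on the SCR arrays, and 5.19, 5.01 and 4.90 on the UT arrays. The 3 genes differed between set A and set B by 4.49, 4.25 and 4.08, or 22.4-fold, 19.1-fold and 17.0-fold.

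ZNF90 read 9.54, 9.37 and 5.63 on the SID arrays, 9.52, 9.24 and 5.51 on the SCR arrays, and 5.61, 5.57 and 5.70 on the UT arrays. It was the most even of the 5 within set A, with a mean of 9.42 ± 0.14 (SD, n = 4) against 5.60 ± 0.07 on set B (SD, n = 5). ZNF91, known to repress SVA retrotransposons in human cells, read 9.12, 9.23 and 5.52 on the SID arrays, 9.13, 8.57 and 5.72 on the SCR arrays, and 5.96, 5.49 and 5.75 on the UT arrays, a gap of 3.32. ZNF93, known to repress a family of LINE retrotransposons, followed with 8.67, 8.09 and 5.39 on the SID arrays, 9.13, 8.57 and 5.74 on the SCR arrays, and 5.78, 5.81 and 5.74 on the UT arrays, a gap of 2.92. Both retrotransposon repressors were therefore high on all 4 arrays of set A and low on all 5 of set B.

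**Figure D2:**
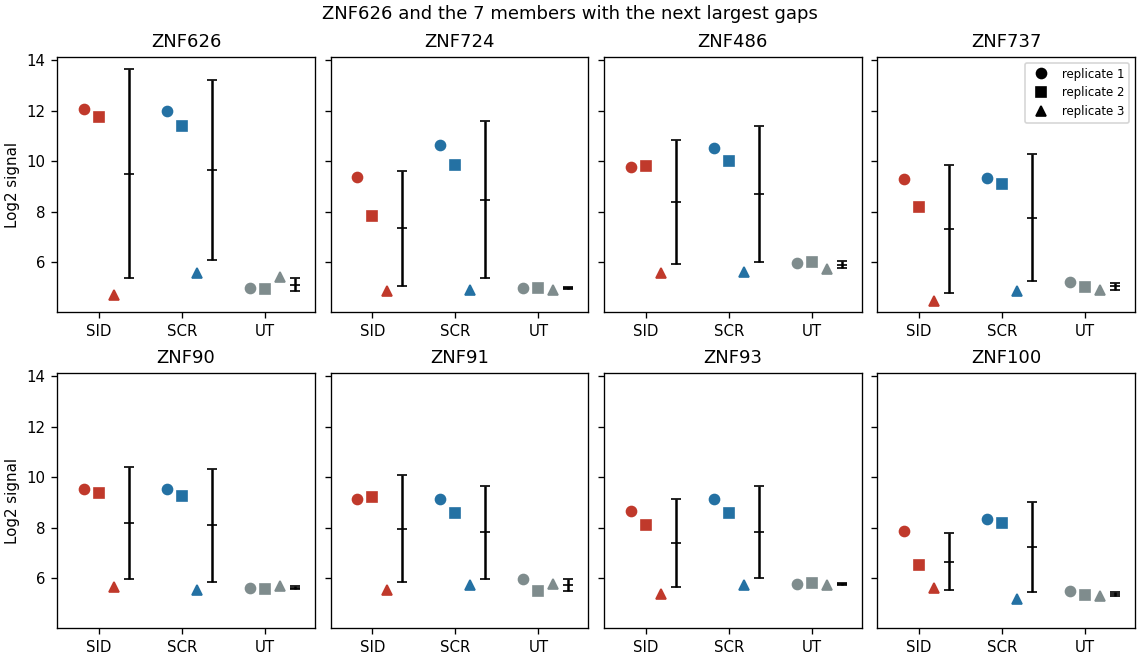
Log2 signal of ZNF626 and the 7 members with the next largest gaps, by group (SID, SCR, UT), with a point per array, its shape giving the replicate, and the group mean with its SD (n = 3) beside it. Replicate 3 of SID and SCR lies with the UT arrays in each panel, so that the SD of SID and SCR is wide (4.16 and 3.56 for ZNF626, against 0.25 for UT).

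Another 9 members had gaps of 1 to 3. Besides ZNF93 these were ZNF100 (2.34), ZNF43 (2.04), ZNF253 (1.75), ZNF429 (1.59), ZNF681 (1.37), ZNF493 (1.21), ZNF675 (1.14) and ZNF85 (1.01). ZNF675 is known as an inhibitor of signalling through TRAF6. ZNF100, ZNF43 and ZNF253 had a wide set A, in which replicate 2 of SID read 6.51, 5.89 and 6.01 while the other 3 arrays read 7.85 to 8.34, 7.31 to 7.60 and 7.63 to 7.86. ZNF675 was more even, with 8.91 to 9.37 on set A and 7.85 to 8.25 on set B.

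The remaining 17 members differed less. Gaps of 0.3 to 1 were found for 9 (ZNF257, ZNF682, ZNF708, ZNF730, ZNF208, ZNF430, ZNF254, ZNF726 and ZNF714) and gaps under 0.3 for 8 (ZNF738, ZNF431, ZNF729, ZNF492, ZNF14, ZNF101, ZNF676 and ZNF99). Just above the limit of 1 stood ZNF85, with 7.11 to 7.72 on set A and 6.33 to 6.48 on set B. Just below it stood ZNF257, with a gap of 0.98 and 10.89 to 11.84 on set A against 10.11 to 10.57 on set B. ZNF101 and ZNF14, at one end of the cluster, each had a gap of 0.14 and overlapped. ZNF99 had the lowest gap of the 31, at -0.02.

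A small gap did not mean one kind of level. With no detection call used here, the lowest 25% of each array's values also served as a rough floor. On all 5 arrays of set B, 20 of the 31 members lay under it, and 7 of these 20 had no array of set A there. A different 7 of the 20 (ZNF682, ZNF676, ZNF729, ZNF492, ZNF99, ZNF730 and ZNF726) lay under it on all 9 arrays, so that a difference in them may not have been measurable. Of these, ZNF682 and ZNF726 still had gaps of 0.80 and 0.39 without overlap, and ZNF730 one of 0.74 with overlap. In contrast 10 members, such as ZNF101, ZNF714, ZNF738 and ZNF254, were above it on every array.

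Along the chromosome, large gaps were grouped but not continuous. ZNF93, ZNF90, ZNF486, ZNF737 and ZNF626 formed 1 stretch with gaps of 2.92 to 6.68, interrupted by ZNF682 (0.80). ZNF253 (1.75) lay just before it. ZNF85, ZNF430, ZNF714, ZNF431, ZNF708 and ZNF738 came next with gaps of 0.26 to 1.01. ZNF493, ZNF429, ZNF100 and ZNF43 followed with gaps of 1.21 to 2.34, and then ZNF208 (0.63) and ZNF257 (0.98). From ZNF676 to ZNF99 the 4 measured members had gaps of -0.02 to 0.18, and large gaps returned at ZNF724 and ZNF91, beyond ZNF730. All 4, like ZNF682 and ZNF730, lay under the rough floor on every array, so a difference in them may not have been measurable. Whether the cluster has a true break in that stretch was therefore not tested. Of 156 genes annotated between the outermost members, only 5 outside the list had a single-symbol probe. ZNF506 was split like the members, with 9.26, 8.85 and 5.10 on the SID arrays, 9.19, 8.77 and 5.13 on the SCR arrays, and 5.15, 5.30 and 5.45 on the UT arrays. The pseudogene ZNF826P had a gap of 2.56 and RPSA2 one of 0.69, both without overlap.

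**Figure D3:**
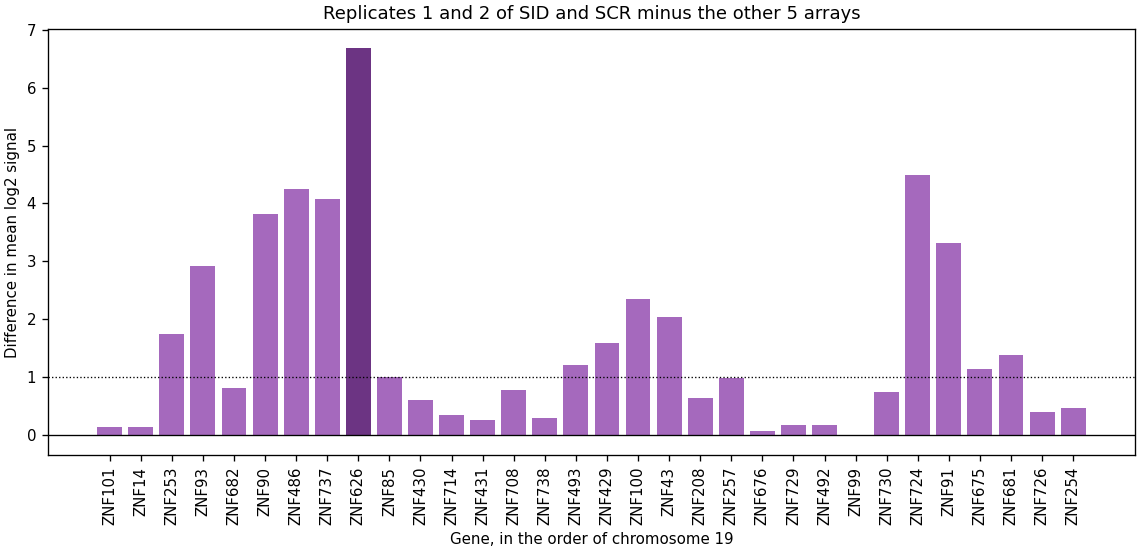
Mean log2 signal on set A (replicates 1 and 2 of SID and SCR) minus that on set B (the other 5 arrays), a bar per measured member in the order of chromosome 19, with ZNF626 darker and a dotted line at 1. Bars are tall from ZNF93 to ZNF626 and again at ZNF724 (4.49) and ZNF91 (3.32), with a flat stretch from ZNF676 to ZNF99. The measured members of that stretch lay under the rough floor on every array, so a difference in them may not have been measurable.

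Some of the signal in this family cannot be assigned to 1 gene. A probe listed for ZNF730, ZNF728, ZNF676, ZNF430, ZNF208, ZNF99, ZNF85 and ZNF43 read 12.74 to 13.71 on all arrays with a gap of 0.47, and a probe listed for ZNF98, ZNF492 and ZNF85 differed by 0.32. The 2 probes of ZNF257 were also unlike, since the one not used read 4.68 to 5.39 with a gap of 0.24. Cross-hybridisation between near-identical copies therefore could not be told apart from expression of the named gene.

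Other zinc finger genes of chromosome 19 were split in part, and those of other chromosomes were near the background. Of 199 other ZNF genes measured on chromosome 19, 46 (23.1%) were higher on set A without overlap by over 1 and none was lower, with a median gap of 0.37. Counting gaps of any size, 46.2% were higher without overlap and 2.51% lower. Those before the cluster in the chromosome's order gave 4 of 42 (9.52%) and those after it 42 of 157 (26.8%). On other chromosomes 17 of 247 (6.88%) were higher and 9 (3.64%) lower, with a median gap of -0.04. The share on other chromosomes was close to the 5.96% of all genes, whereas the shares for the cluster and for the rest of chromosome 19 lay above it.

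The genes that encode the proteins through which KRAB zinc finger proteins act showed smaller gaps in RNA signal. None of 22 corepressor and heterochromatin genes was higher on set A by over 1 without overlap, and 1 was lower. Counting gaps of any size, 8 of the 22 (36.4%) were lower on set A without overlap and 1, ATF7IP, was higher, where 15.6% of all genes were lower and 16.8% higher. The gene lower by over 1 was CBX5, which encodes a heterochromatin protein, with 11.63, 11.02 and 13.21 on the SID arrays, 12.67, 12.68 and 13.10 on the SCR arrays, and 13.16, 13.10 and 13.16 on the UT arrays. TRIM28 had a gap of -0.25 and overlapped. SETDB1, the methyltransferase recruited by TRIM28, had a gap of -0.70 without overlap.

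The pattern of ZNF626 over the arrays was met most closely by genes outside the cluster. By the root mean square distance between log2 values centred on each gene's mean over the 9 arrays, the nearest were HLA-DPA1 (0.26), ANKRD1 (0.30), EHF (0.43), PLAC8 (0.44) and NT5E (0.45). HLA-DPA1, an antigen presentation gene on chromosome 6, averaged 13.19 on set A and 6.57 on set B. The nearest member was ZNF486 at a distance of 1.26, at rank 48. The likeness is a description over 9 arrays in 2 sets.

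The comparison of SID with SCR asked whether the decoy peptide changed these genes relative to its scrambled control. With limma on all 9 arrays, 0 of the 31 members were called at an adjusted p under 0.05 (Benjamini-Hochberg) and a log2 difference beyond 1, and 0% of all 19460 probes were. At an unadjusted p under 0.05 there were 1474 probes, among them 1 member, ZNF101 (difference -0.34, SE 0.12). Of the members, 24 were lower and 7 higher in SID, and the median difference was -0.25, against 0.02 over all genes. Of all genes, 8245 were lower and 10172 higher. The median was also -0.25 with the array set as a block, and -0.39 with replicates 1 and 2 alone. It was 0.046 without replicate 3 of SID and 0.034 without replicate 1 of SCR, but -0.49 without replicate 1 of SID and -0.71 without replicate 3 of SCR. In every fit without 1 SID or SCR array, the 2 peptides hold unequal numbers of arrays from the sets.

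Taken replicate by replicate, members were more often lower with SID than with SCR in the pairs numbered 1 and 2. The median member difference of the 3 pairs was -0.29, -0.44 and -0.02, where the median over all genes was 0, 0.07 and 0.009. In replicates 1 and 2 each, 24 of 31 members were lower (against 49.3% and 39.3% of all genes), 21 of them in both, and 18 were lower in replicate 3 (against 44.5%). Differences below -1 were found for 2 members in replicate 1 and 6 in replicate 2, where 2.45% and 5.16% of all genes were that low. In replicate 3 the largest member difference in either direction was 0.43.

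ZNF724 had the largest mean difference, at -1.13 (SE 1.63, limma adjusted p = 0.922), made of -1.28, -2.05 and -0.05 in the 3 replicates. It was lower in SID in 3 of 3 replicates, but the split between the array sets gave a spread wider than the difference, and without replicate 3 of SID the value was 0.12. ZNF253, known as a transcriptional repressor, differed by -0.67 (SE 0.72, adjusted p = 0.878 in the same limma fit), almost wholly through replicate 2 (-0.23, -1.76 and -0.02). ZNF730 read 5.76, 5.52 and 5.54 in SID cells, 6.77, 6.62 and 5.32 in SCR cells, and 5.34, 5.38 and 5.56 in UT cells. Only replicates 1 and 2 of SCR stood out, and all 9 values lay in the lowest 25% of their arrays. Its difference of -0.63 (SE 0.35, limma adjusted p = 0.692) was not called. In a limma fit of replicates 1 and 2 alone it was called lower in SID (-1.05, SE 0.12, adjusted p = 0.0212), as the only one of the 31 members, against 2.64% of all probes (514 of 19460), so that the share of members was close to that background. It was also the only member called without replicate 3 of SCR (-1.09), where 0.822% of all probes were called lower.

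**Figure D4:**
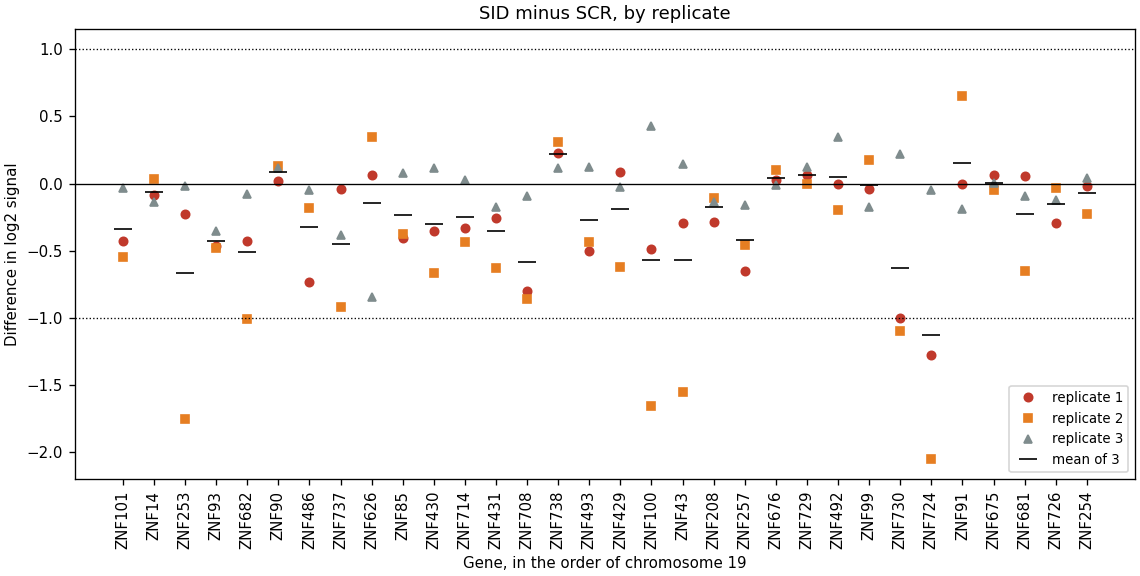
SID minus SCR in log2 signal for each measured member in the order of chromosome 19, with a point per replicate, a dash at the mean of 3 and dotted lines at 1 and -1. Replicate 3 stays within 0.43 of 0 except for ZNF626 (-0.85), while ZNF724 reaches -2.05 in replicate 2.

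ZNF626 itself differed little between the peptides in replicates 1 and 2 (0.07 and 0.35). Members with large gaps between array sets were not moved alike, since ZNF90 differed by 0.02 and 0.13 in these replicates, ZNF91 by -0.01 and 0.65, and ZNF737 by -0.04 and -0.92. The corepressor genes also had 0 of 22 called between SID and SCR, with 17 lower and 5 higher and a median of -0.16. Over all genes 8245 were lower and 10172 higher, with a median of 0.02. The largest differences there were UHRF1, a reader of methylated DNA (-0.87), CBX5 (-0.86) and PPHLN1 (-0.55).

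The comparisons with untreated cells asked for effects of either peptide. In limma 0 of 31 members were called in SID against UT and 0 in SCR against UT, with 0% of all probes called in each. At an unadjusted p under 0.05 there were 2432 and 2811 probes, among them 0 and 4 of the members. The median member difference was 0.28 for SID minus UT (26 higher, 5 lower) and 0.76 for SCR minus UT (28 higher, 3 lower). Over all probes these medians were 0.018 and 0.006. Over the fits that left out 1 array the median ran from 0.11 to 0.47 for SID minus UT and from 0.49 to 1.18 for SCR minus UT. The lowest were without replicate 1 of SID and of SCR, and the highest without replicate 3 of each. Since all UT arrays belong to set B, these values include the split between the sets. With the array set as a block the medians were -0.22 for SID minus UT (28 lower, 3 higher) and 0.018 for SCR minus UT, and no member was called. The medians over all probes in that fit were 0.021 and 0.012. With array weights 13 members were called higher in SID than in UT (background 6.38%). In that setting 18 were called higher in SCR than in UT (background 5.89%). It kept all arrays, and 2389 and 2116 of all probes were called in either direction, where the main fit called 0. The estimation of the weights did not converge fully, and these calls include the split between the sets too. Without replicate 3 of SID, ZNF90 and ZNF91 were called higher in SID than in UT (2 of 31, near the background of 4.71%). Without replicate 3 of SCR 9 members were called higher in SCR than in UT (background 3.16%). The fits without replicate 3 of SID or of SCR set peptide arrays of set A alone against UT arrays of set B. Their calls therefore cannot tell a peptide effect from the split, which was recognised in these data, and are no test of the peptide.

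The promoter feature did not separate the members by gap. Among measured members, leaving out ZNF626, the 6 with 2 copies of the word had gaps of 0.63 to 4.49 (median 2.48), and the 18 with 1 copy had gaps of 0.14 to 4.25 (median 0.76), so the ranges overlapped. The windows of the 28 members (250 bases before and 50 after the start) held 8 to 18 CpG pairs, against a median of 14 over all promoters. ZNF626 and ZNF737 had the fewest, at 8 each. The 4 members with a window and a gap under 0.3 held 14 to 18. The 6 beside ZNF626 with a gap above 2.5 held 8 to 14 (median 10). The other 20 measured members with a window, which include those 4, also had a median of 10. These limits were set after the values were seen, and no test was made.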

How the data were processed

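RNA labelled as from MDA-MB-231 cells was measured on 9 arrays, 3 each of SID, SCR and UT. The deposited values are on a log2 scale, made by the authors, whose notes name RMA, Expression Console and Transcriptome Analysis Console, with no version given in the sources used here. Probes with 1 gene symbol were kept (19460 of 33297), and the probe with the highest mean over the 9 arrays stood for a gene. The study's own test on single probes could not be rerun from these values. Groups were compared with limma 3.58.1 in R 4.3.3 (lmFit and eBayes, no block), with Benjamini-Hochberg adjustment over all 19460 probes, and probes were called at an adjusted p below 0.05 with a difference beyond 1. The fit was tested on simulated data. The methods speak of 2 replicates and the series' design of 3 independent ones. Where the 3 arrays of a group share a culture, p-values measure only the spread between these arrays. A supplementary header gives a longer treatment for SCR replicate 3 than the labels, which were followed.

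Members and gene lists were chosen with earlier results of these data known. All measured members could be named. The other genes named were the 5 nearest to ZNF626, the corepressor genes and neighbours with the largest differences, and the markers. TRIM28, SETDB1 and the promoter word were chosen after their values were seen. ZNF626 was left out of the tests, of the counts of members called or split between array sets, and of the comparison of gaps with promoter features, and was kept in the counts of promoters that hold the word. Same-numbered SID and SCR arrays deviated together from their group means (r of 0.77, 0.57 and 0.79). SID and UT did not (0.03, 0.21 and 0.09), and SCR and UT did not (-0.07, -0.02 and -0.06). Since replicates 1 and 2 of both peptides lie in set A and replicate 3 in set B, these r include the split. They cannot show that replicate 1 of SID belongs with replicate 1 of SCR, or 2 with 2. SID replicate 1 correlated at 0.9762 and 0.9759 with SCR replicates 1 and 2, and SID replicate 2 at 0.9635 and 0.9632. Gene names came from the platform annotation, of which 19429 probes matched current records by Entrez ID. Figures were drawn with matplotlib 3.10.9.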

Additional observations from a re-analysis of the deposited data

How the results depend on the processing

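For SID against SCR, 0 members were called in each fit other than that of replicates 1 and 2 alone, which called 1 (ZNF730), and those leaving out 1 array each, which called 0 to 1. The median member difference of -0.25 ran from -0.71 to 0.046 over the fits that each left out 1 array. ZNF724 ran from -2.91 to 0.12 over the same fits, and changed sign only without replicate 3 of SID (0.12). The called difference of ZNF730 rested on leaving out replicate 3 of SCR or of both peptides. With array weights and all arrays kept it was -0.96 (SE 0.17, limma adjusted p = 0.0059), not called since it was within the limit of 1. For SID against UT the calls were 13 with array weights and 0 to 2 with 1 array left out, and the median was -0.22 with the array set as a block. For SCR against UT the calls were 18 with array weights and 0 to 9 with 1 array left out, and the median of 0.76 was 0.018 with the array set as a block and 0.31 over the 7 members left without dim probes. The counts of 2 and 9 came without replicate 3 of that peptide, which sets arrays of set A alone against set B. The estimation of array weights did not converge fully, and the cause of these changes was not tested. The replicate block, which groups same-numbered arrays, gave 0 called members in each of the 3 comparisons. It left the medians at -0.25, 0.28 and 0.76, so it changed no call. The count of 14 members higher on replicates 1 and 2 of SID and SCR, a result whose alternatives were chosen after seeing the data, was 13 under quantile normalization, 14 after centring arrays on the median, 14 with the mean of a gene's probes, and 13 to 16 with 1 array left out. Leaving out dim probes kept 7 of the 31 members, so ZNF724, ZNF253 and ZNF730 had no value there. The methods' t-test called 0 members and 0 probes in each comparison. Precision is limited by 3 arrays a group.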
